A study of Mus musculus with 6 samples.

Results

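The genes described here write, maintain and remove methylation on cytosines of DNA. They were followed in mouse induced pluripotent stem cells (iPSCs) that lack the microRNA miR-34a and in wild-type iPSCs. The set was given as a list of 10 genes, Dnmt1, Dnmt3a, Dnmt3b, Dnmt3l, Uhrf1, Uhrf2, Tet1, Tet2, Tet3 and Tdg. All 10 were matched by symbol among the 41388 gene rows of the count table, and all 10 passed the filter on low counts in each genotype taken alone. The groups are 3 miR-34a-/- lines (called knockout) and 3 wild-type lines of the C57BL/6 strain. Each line grew from a single picked colony of fibroblasts taken from littermate embryos at embryonic day 13.5. Retroviruses carrying Oct4, Sox2 and Klf4 reprogrammed the cells of both genotypes, and all lines grew on irradiated fibroblast feeders, so each library may also hold feeder RNA. The sources used here do not give the number of embryos behind the lines. Poly(A) RNA was sequenced in 1 strand-specific library per line.

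In mammals, the de novo methyltransferases DNMT3A and DNMT3B, helped by the catalytically inactive DNMT3L, place new methyl groups on CpG sites. UHRF1 recognises half-methylated sites after replication and brings DNMT1 to copy the mark. TET enzymes oxidise the methyl group, and the glycosylase TDG cuts out oxidised bases for repair. Mouse pluripotent cells are known for strong expression of the de novo enzymes and of the TET enzymes TET1 and TET2.

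Total counts per library ran from 8721581 to 29654855 in knockout lines and from 8432597 to 25698286 in wild-type lines. The lowest count of any of the 10 genes in any library was 127, for Tet3 in wild-type replicate 2. Levels below are CPM, counts per 1000000 counts of a library after scaling with edgeR's TMM factors, and folds are knockout over wild-type. A gene was called at an adjusted p under 0.05 (edgeR quasi-likelihood test, two-sided, Benjamini-Hochberg over all 14717 genes tested). Markers of pluripotent cells were high in both genotypes, with sums over the 10 listed markers of 7573 to 8014 CPM in knockout lines and 6409 to 6571 CPM in wild-type lines. Oct4 and Sox2 are among these markers, and their counts may also hold transcripts of the reprogramming retroviruses. The Mir34a gene was almost unread in either genotype, with at most 1 count in a knockout library and at most 2 in a wild-type one, so these poly(A) libraries gave no check of the deletion. The mature microRNA that the knockout lacks is shown because its seed, bases 2 to 8 in capitals, fixes the letters searched for in the 10 genes. Sequences of microRNAs and promoters are from RefSeq, build GRCm38.p6, and miR-34a-5p lies at chr4:150068473-150068494 on the plus strand.
mmu-miR-34a-5p: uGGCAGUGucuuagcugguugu

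Of the 10 genes, 3 rose and 3 fell in the knockout. Dnmt3b fell the most of the 10, to 0.321 times its wild-type level, while Tet2 and Tet3 rose and Uhrf2 and Tdg fell by smaller folds. Dnmt1, Dnmt3a, Dnmt3l and Tet1 were not called. The genotypes differed across the whole transcriptome, with 50.5% of tested genes called, 26.5% higher and 24% lower, so 6 calls among 10 genes is a share near this background. The groups did not overlap in 6 of the 10 genes, against 56% of all tested genes. The median log2 fold change of the 10 genes was -0.05, and that of all tested genes was 0.0056.

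**Figure D1:**
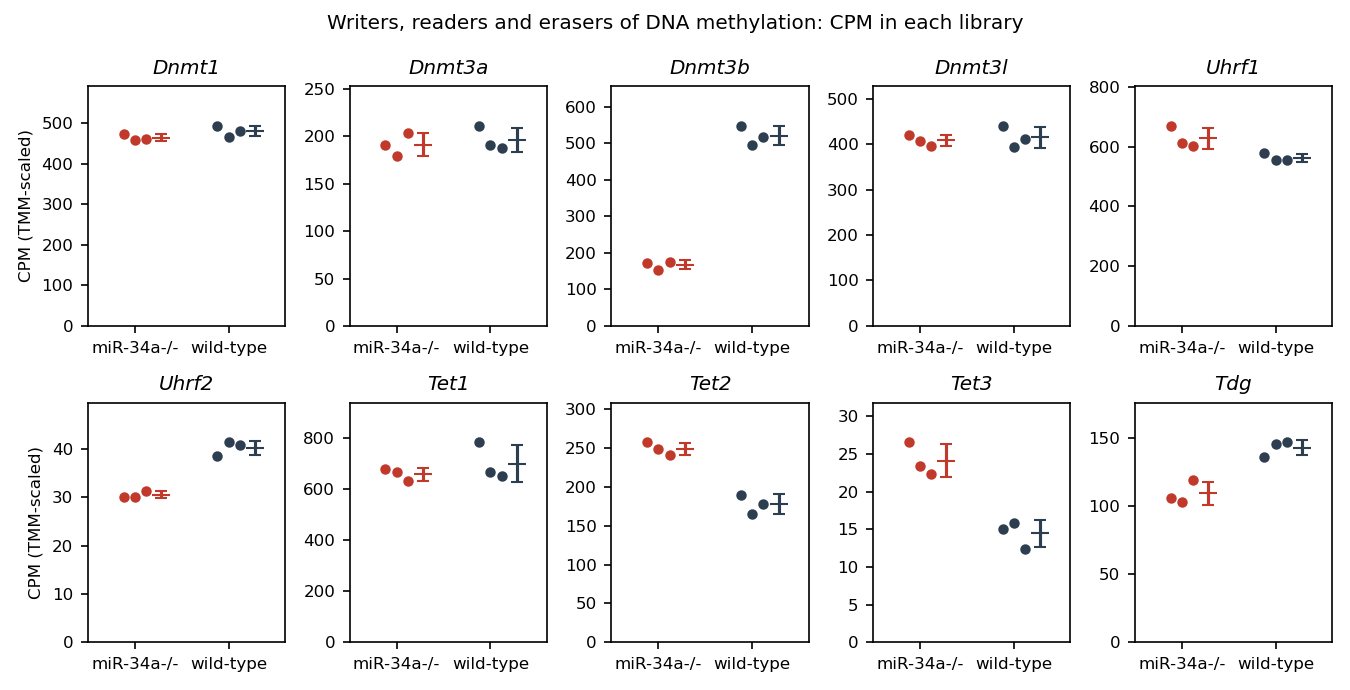
CPM of each gene in each library (points, left to right replicates 1 to 3), with the mean and SD beside them (n = 3 lines per genotype); every vertical axis starts at 0. Dnmt3b lies at 154 to 176 CPM in knockout lines and at 495 to 547 CPM in wild-type lines, and the points of Dnmt1, Dnmt3a, Dnmt3l and Tet1 overlap.

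**Figure D2:**
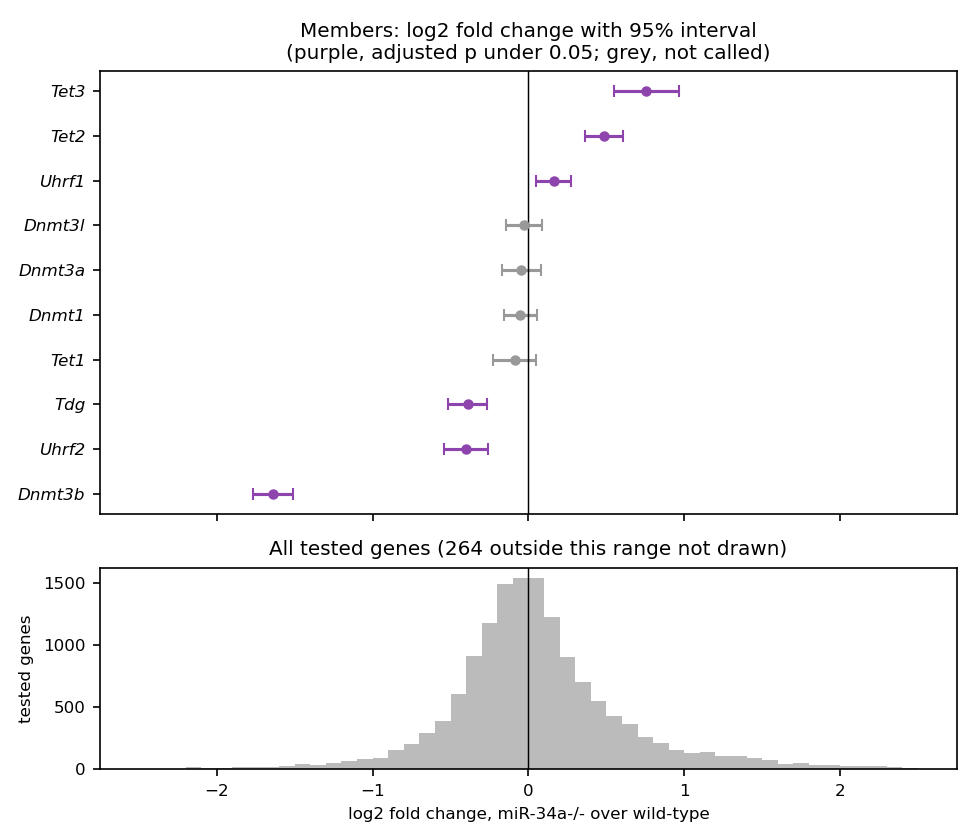
Log2 fold changes of the 10 genes with 95% intervals (upper panel) and of all tested genes (lower panel, number of genes per bin), on the same horizontal axis (264 genes beyond it are not drawn). Dnmt3b at -1.64 stands in the thin lower tail of the distribution, whereas the other called genes lie between -0.40 and 0.76.

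Dnmt3b was the one de novo enzyme called. Dnmt3b (ENSMUSG00000027478, chr2:153649450-153687730 in mm10, plus strand) had 173, 154 and 176 CPM in the knockout lines, against 547, 495 and 518 CPM in the wild-type lines. Each knockout line was at less than any wild-type line, and the groups did not overlap. The log2 fold change was -1.64 (SE 0.061, edgeR adjusted p = 7.3e-14), a fold of 0.321 with a 95% interval of 0.294 to 0.351. Of the 14717 tested genes, 107 had a lower log2 fold change, and 33 of the 10314 genes with a mean of at least 5 CPM did. In bulk RNA, fewer cells with the transcript and less transcript per cell cannot be told apart. The gene has a rodent paralog next to it, Dnmt3c, and 90.2% of the 50-base stretches of Dnmt3b were found in no other annotated gene. Dnmt3c itself had 6, 13 and 8 counts in the knockout lines and 2, 0 and 1 counts in the wild-type lines, small beside the 1434 to 4303 Dnmt3b counts of knockout lines and the 3960 to 13349 of wild-type lines.

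The 250 bases before the RefSeq start of Dnmt3b are shown because it is the gene of the set with the largest difference. The same stretches of Tet2 and Tet3 stand beside them because those genes rose. Their RefSeq starts lie inside the GENCODE gene spans given for Tet2 and Tet3 with their values, so these windows do too. Capitals mark each CG, the dinucleotide these enzymes act on, which reads the same on both strands. The windows are chr2:153649199-153649448 on the plus strand for Dnmt3b, chr3:133544391-133544640 on the minus strand for Tet2 and chr6:83441679-83441928 on the minus strand for Tet3, each written 5′ to 3′ along its gene.
Dnmt3b: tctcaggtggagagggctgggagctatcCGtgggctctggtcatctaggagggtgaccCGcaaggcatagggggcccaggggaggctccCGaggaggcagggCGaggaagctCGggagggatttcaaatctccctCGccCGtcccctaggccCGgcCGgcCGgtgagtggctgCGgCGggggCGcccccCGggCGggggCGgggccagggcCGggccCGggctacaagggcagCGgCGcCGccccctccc
Tet2: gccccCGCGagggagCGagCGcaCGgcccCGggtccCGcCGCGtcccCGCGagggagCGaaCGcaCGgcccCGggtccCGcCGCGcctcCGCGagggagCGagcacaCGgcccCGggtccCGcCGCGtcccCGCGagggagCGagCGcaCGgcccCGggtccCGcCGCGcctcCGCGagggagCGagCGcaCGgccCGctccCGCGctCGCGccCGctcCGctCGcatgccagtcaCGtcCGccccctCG
Tet3: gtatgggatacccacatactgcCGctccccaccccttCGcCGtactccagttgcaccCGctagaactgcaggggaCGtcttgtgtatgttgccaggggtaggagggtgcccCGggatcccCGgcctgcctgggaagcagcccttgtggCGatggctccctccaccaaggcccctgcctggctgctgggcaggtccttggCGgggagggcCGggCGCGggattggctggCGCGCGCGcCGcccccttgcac
The Dnmt3b window holds 21 CG dinucleotides, more than 83.7% of the 32851 RefSeq windows of this length. The Tet2 window, built largely of a repeated unit, holds 51 and exceeds 99.9% of windows, and the Tet3 window holds 17 and exceeds 76.5%. At least 1 CG stands in 92.1% of all windows, and their median is 6. RNA counts do not tell whether any of these CGs is methylated.

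Dnmt3a, the other active de novo enzyme, had 191, 179 and 203 CPM in the knockout lines, against 211, 191 and 188 CPM in the wild-type lines. The 2 groups overlapped, and the log2 fold change was -0.05 (SE 0.059, edgeR adjusted p = 0.54), with a 95% interval of the fold of 0.888 to 1.06. Dnmt3l, the inactive partner that stimulates both enzymes in mouse germ cells, had 421, 408 and 396 CPM in the knockout lines, against 439.9, 394 and 412 CPM in the wild-type lines. Its groups also overlapped, with a log2 fold change of -0.03 (SE 0.055, edgeR adjusted p = 0.71) and an interval of 0.907 to 1.06. A 2-fold difference of either gene lies outside its interval. The sign of Dnmt3a turned without knockout replicate 2 (0.0009) or wild-type replicate 1 (0.0072), and that of Dnmt3l turned without wild-type replicate 1 (0.014), in each case with no call. Within each library, the level of Dnmt3b per kilobase of merged exons was 2.96, 2.80 and 2.82 times that of Dnmt3a in the knockout lines, against 8.46, 8.45 and 8.99 times in the wild-type lines. Dnmt3l stood at 4.17 ± 0.341 times Dnmt3b in the knockout lines and at 1.36 ± 0.0075 times in the wild-type lines (SD, n = 3 each). The summed level per kilobase of Dnmt3a and Dnmt3b was 44.3 ± 3.02 in the knockout lines and 113.7 ± 5.77 in the wild-type lines (SD, n = 3 each). Gene counts do not separate isoforms, so full-length and short forms of Dnmt3a, or catalytic and inactive splice forms of Dnmt3b, were not measured apart.

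The maintenance pair Dnmt1 and Uhrf1 differed by small folds. Dnmt1, which copies the mark at replication, had 473, 457 and 461 CPM in the knockout lines, against 493, 467 and 481 CPM in the wild-type lines. The groups overlapped, and the log2 fold change of -0.05 (SE 0.051, edgeR adjusted p = 0.42) has a fold interval of 0.896 to 1.04. With library GC trends removed, Dnmt1 was called lower (-0.15, adjusted p = 0.016). Uhrf1 (ENSMUSG00000001228, chr17:56303321-56323486, plus strand), its guide to replicated DNA, had 669.5, 614 and 604 CPM in the knockout lines, against 578, 554 and 556 CPM in the wild-type lines. All knockout lines were above all wild-type lines, and Uhrf1 was called higher by a small fold of 1.12 (log2 fold change 0.16, SE 0.055, edgeR adjusted p = 0.021). That call was lost without knockout replicate 1 (0.12, adjusted p = 0.13), without wild-type replicate 2 (0.15, adjusted p = 0.10), without wild-type replicate 3 (0.14, adjusted p = 0.062), with no count filter (0.14, adjusted p = 0.051) and with library GC trends removed (0.07, adjusted p = 0.29). A processed copy of part of Uhrf1, Gm5648, had at most 6 counts in any library.

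Uhrf2, the paralog of Uhrf1 that binds hydroxymethylated DNA in vitro, went the other way. Uhrf2 (ENSMUSG00000024817, chr19:30030513-30093722, plus strand) had 30.1, 29.9 and 31.3 CPM in the knockout lines, against 38.6, 41.3 and 40.7 CPM in the wild-type lines. The lines of each genotype lay close together and the groups did not overlap. The log2 fold change was -0.40 (SE 0.067, edgeR adjusted p = 6.4e-05), and with library GC trends removed it was -0.23 (adjusted p = 0.0057). Transcripts of Uhrf2 have a GC content of 43.8%, among the lowest of the set, whose range is 43.8% to 55.8%. Uhrf2 is also the one gene of the 10 whose longest annotated 3′ untranslated region holds the 7 letters CACTGCC that pair with the miR-34a seed. The match starts 351 bases after the stop codon of 858 untranslated bases, inside chr19:30093204-30093232 on the plus strand, with the matching letters in capitals.
Uhrf2: ttttagctacaCACTGCCtcccaagtatt
The sense strand of the longest untranslated region of each gene was searched, and 18.8% of 13418 tested genes with such a region hold the 7 letters. With 6 letters, ACTGCC, a match was found in 5 of the 10 genes (Dnmt3a, Dnmt3b, Tet1, Tet3 and Uhrf2) and in 36.9% of all. In that order, the regions of these genes have 6696, 1331, 7962, 5669 and 858 bases, against a median of 1311.5 for all. The shares were not adjusted for length. A match is only a description of the letters. By their label, the lines in which Uhrf2 was lower are those without miR-34a, and whether miR-34a acts on Uhrf2 was not tested.

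Among the erasers, Tet2 and Tet3 rose and Tet1 did not pass the test. Tet1, the most abundant TET gene of these cells, had 681, 667 and 631 CPM in the knockout lines, against 784, 669 and 651 CPM in the wild-type lines. The groups overlapped, and wild-type replicate 1 stood above the rest (log2 fold change -0.09, SE 0.066, edgeR adjusted p = 0.28, fold interval 0.855 to 1.04). With library GC trends removed, the sign turned to 0.05 (adjusted p = 0.61). Tet2 (ENSMUSG00000040943, chr3:133463679-133545139, minus strand), which lacks the CXXC DNA-binding domain of its relatives, had 257, 248 and 241 CPM in the knockout lines, against 189.8, 164 and 178 CPM in the wild-type lines. No line of one genotype reached the range of the other. Its log2 fold change was 0.48 (SE 0.057, edgeR adjusted p = 9.2e-07), a fold of 1.4. Tet3 (ENSMUSG00000034832, chr6:83362373-83459084, minus strand), the enzyme of the mouse zygote, was scarce but higher in all knockout lines. It had 26.5, 23.4 and 22.3 CPM in the knockout lines, against 15.1, 15.9 and 12.4 CPM in the wild-type lines. The log2 fold change of Tet3 was 0.76 (SE 0.099, edgeR adjusted p = 3.5e-06), a fold of 1.69. With library GC trends removed, the log2 fold changes of Tet2 and Tet3 were 0.64 and 0.63. Summed per kilobase, the TET genes were at 58.9 ± 2.22 in the knockout lines and at 56.7 ± 5.32 in the wild-type lines (SD, n = 3 each), values whose ranges overlap. Tet1 made up 72.5% ± 0.252 of that sum in the knockout lines and 79.9% ± 0.936 in the wild-type lines, and Tet2 made up 25.0% ± 0.225 in the knockout lines and 18.6% ± 1.03 in the wild-type lines (SD, n = 3 each).

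Tdg (ENSMUSG00000034674, chr10:82629828-82650799, plus strand), the glycosylase that removes oxidised methylcytosine, fell. It had 106, 103 and 119 CPM in the knockout lines, against 136, 145 and 147 CPM in the wild-type lines. The groups did not overlap, and the log2 fold change was -0.39 (SE 0.060, edgeR adjusted p = 2.3e-05, fold 0.763). The value carries a limit, since only 58.8% of the 50-base stretches of Tdg were unique, the others being shared mainly with the copies Tdg-ps, Gm9855 and Gm5597. The sources used here do not say how reads that fit several places were counted. Tdg-ps had 3, 7 and 4 counts in the knockout lines and 0 in each wild-type line. Gm9855 had 13, 18 and 4 counts in the knockout lines and 1, 0 and 0 in the wild-type lines. Gm5597 had 4, 1 and 1 counts in the knockout lines and 6, 0 and 0 in the wild-type lines. Glt8d2, on the other strand, shares 367 exonic bases with Tdg and had at most 14 counts in any library. Tdg itself had 969 to 2889 counts in the knockout lines and 1162 to 3325 in the wild-type lines.

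Levels of different genes were compared as CPM per kilobase of merged exons. In the knockout lines the order was Uhrf1 (148 ± 8.30), Dnmt3l (137 ± 4.18), Dnmt1 (62.9 ± 1.15), Tet1 (42.7 ± 1.65), Dnmt3b (32.8 ± 2.34), Tdg (20.3 ± 1.55), Tet2 (14.7 ± 0.473), Dnmt3a (11.5 ± 0.728), Uhrf2 (3.54 ± 0.0841) and Tet3 (1.44 ± 0.130). In the wild-type lines it was Dnmt3l (139 ± 7.69), Uhrf1 (132 ± 3.19), Dnmt3b (101.9 ± 5.12), Dnmt1 (65.1 ± 1.76), Tet1 (45.4 ± 4.68), Tdg (26.6 ± 1.04), Dnmt3a (11.8 ± 0.756), Tet2 (10.5 ± 0.757), Uhrf2 (4.68 ± 0.165) and Tet3 (0.867 ± 0.108), all SD with n = 3. Dnmt3b thus held place 5 in the knockout lines and place 3 in the wild-type lines. The ranges of neighbours in the order overlapped for Dnmt3l and Uhrf1 in the wild-type lines and for no other pair of neighbours in either genotype. Per kilobase of the longest coding transcript, the order was the same except that Dnmt3l stood above Uhrf1 in the knockout lines.

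**Figure D3:**
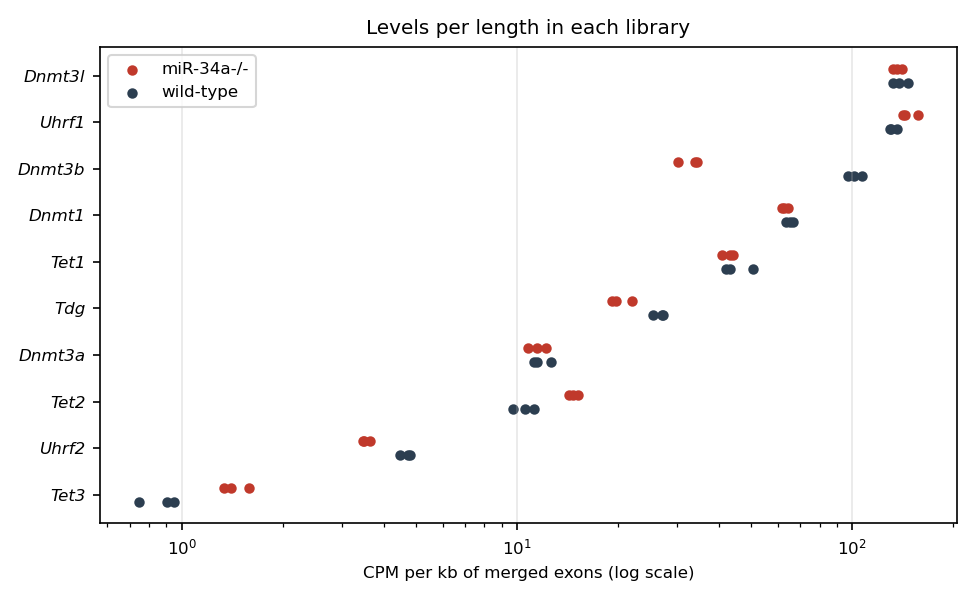
Level of each gene per kilobase of merged exons in each library (points; horizontal log axis in CPM per kb), knockout above wild-type in each row, rows ordered by the wild-type mean. Dnmt3b is the gene that changes its place most, at 30.1 to 34.4 in knockout lines and 97.0 to 107 in wild-type lines.

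Genes that work with the 10 were drawn from lists, named by the smallest p within each list. Of 10 readers of methylated CpG, 5 rose, 1 fell and 4 were not called, with a median log2 fold change of 0.22. Zfp57, which guards methylation at imprinted loci, was at 532 ± 18.8 CPM in the knockout lines and 269.6 ± 12.5 CPM in the wild-type lines (SD, n = 3 each; log2 fold change 0.98, edgeR adjusted p = 2.6e-11). Mbd1, which also binds methylated CpG, had a log2 fold change of 0.75. Of 17 tested partners and regulators, 5 rose, 9 fell and 3 were not called (median -0.16). Dppa3, whose protein restrains UHRF1 in mouse oocytes, was at 26.3 ± 1.59 CPM in the knockout lines and 91.3 ± 3.59 CPM in the wild-type lines (SD, n = 3 each; log2 fold change -1.80, edgeR adjusted p = 7.3e-14). Smchd1, a silencing factor of the inactive X, had -0.83, and Kdm2b, whose protein binds unmethylated CpG islands, had 0.75. The shares called were 60% for the readers and 82.4% for the partners, against 50.5% of all tested genes.

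Repair and donor genes were mixed. Of 20 tested genes of demethylation and base excision repair, 2 rose, 8 fell and 10 were not called (median -0.10). Idh2, a mitochondrial enzyme that makes the TET cosubstrate 2-oxoglutarate, rose by 0.75 on the log2 scale, while Hmces and the X-linked sugar transferase gene Ogt, whose protein binds TET enzymes, had -0.57 and -0.45. Of 13 tested genes of the methyl donor cycle, 3 rose, 4 fell and 6 were not called (median -0.02), and 12 of the 13, with 2 of the 3 that rose, would have passed the filter in the wild-type lines alone. Mat2a, which makes the methyl donor S-adenosylmethionine, was at 167 ± 9.01 CPM in the knockout lines and 267.9 ± 7.70 CPM in the wild-type lines (SD, n = 3 each; log2 fold change -0.68, edgeR adjusted p = 3.6e-09). The folate genes Shmt1 and Shmt2 had log2 fold changes of -0.51 and 0.46. Of 15 listed genes of DNA replication and the cell cycle, 2 rose, 6 fell and 7 were not called (median -0.07). Ccne1, Rrm2 and Mcm4 had log2 fold changes of -0.73, -0.28 and -0.26. The shares called were 50% for the repair genes, 53.8% for the donor genes and 53.3% for the replication genes, near the 50.5% of all tested genes.

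A list of germline genes whose CpG-rich promoters are methylated in somatic mouse cells was examined next. Like the other lists, it was chosen with earlier results of these data known, so its counts are a description only. Of 19 tested, 15 rose in the knockout, 0 fell and 4 were not called (median log2 fold change 0.98), against 26.5% of all tested genes called higher. Of these, 17 would have passed the count filter in the wild-type lines alone, and 13 of the 17 rose. Sohlh2, a germ cell transcription factor gene, was at 14.4 ± 1.44 CPM in the knockout lines and 4.26 ± 0.568 CPM in the wild-type lines (SD, n = 3 each; log2 fold change 1.78, edgeR adjusted p = 1.4e-09). Piwil2 and Tex19.1, genes of transposon control, rose by 0.75 and 0.51 on the log2 scale. Summed over the 20 listed genes, levels were 249.8 to 258 CPM in the knockout lines and 154 to 166 CPM in the wild-type lines. Whether their promoters differed in methylation was not measured.

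**Figure D4:**
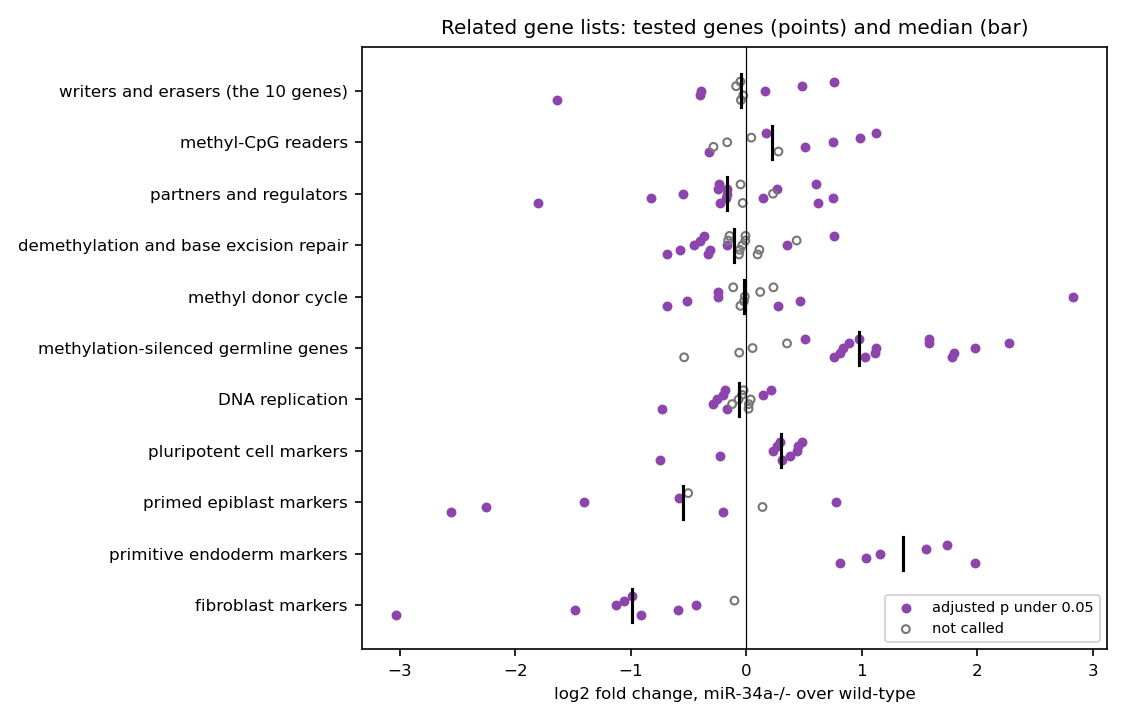
Log2 fold change, knockout over wild-type, of every tested gene of each list (points, filled where the adjusted p was under 0.05; bars, medians). The 10 writers and erasers have a median of -0.05 with Dnmt3b far to the left, and the germline genes lie mostly to the right of 0 with a median of 0.98.

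The genotypes also differed in sex-linked genes and in markers of other cells. The Y-linked genes Ddx3y, Eif2s3y, Kdm5d and Uty summed to 6, 10 and 1 counts in the knockout lines, against 977, 329 and 593 counts in the wild-type lines. Of 512 tested X-linked genes, 278 rose and 76 fell (median log2 fold change 0.37), and the autosomal median was 0.00038. Xist was at 4.90 ± 0.749 CPM in the knockout lines and 3.07 ± 0.0820 CPM in the wild-type lines (SD, n = 3 each). None of the 10 genes lies on the X or Y chromosome, and with autosomal genes alone in the fit 3 of them rose and 3 fell. Because Y-linked counts were at most 10 in every knockout line and at least 329 in every wild-type line, the genotype and the difference in sex chromosomes cannot be told apart for Dnmt3b or any other gene here.

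Markers of primed epiblast, a later pluripotent state in which Dnmt3b is known to be high, summed to 95.1 to 98.5 CPM in the knockout lines and 129 to 147 CPM in the wild-type lines. Of its 8 tested genes 1 rose, 5 fell and 2 were not called, with Lef1, T and Fgf8 at log2 fold changes of -1.40, -2.55 and -2.26. Of the 8, 7 would have passed the filter in the knockout lines alone, Fgf8 being the exception. Fibroblast markers, which feeders would bring, summed to 286 to 355 CPM in the knockout lines and 419 to 586 CPM in the wild-type lines. Of 9 tested, 8 fell, 0 rose and 1 was not called, with Postn, Thy1 and Pdgfrb at -3.03, -0.59 and -0.91. The abundant Col1a1 fell (-0.99), with means of 127 CPM in the knockout lines and 254 CPM in the wild-type lines. Col1a2, also abundant, was the gene not called (-0.10), with means of 153 and 166 CPM. Fap and Lum were at 0 counts in all knockout lines and at 3 counts or fewer in each wild-type line. Only 7 of the 9 would have passed the filter in the knockout lines alone. Primitive endoderm markers summed to 29.6 to 31.4 CPM in the knockout lines and 10.6 to 14.1 CPM in the wild-type lines, and all 6 tested rose, 5 of which would have passed the filter in the wild-type lines alone, with Pdgfra, Gata4 and Dab2 at 1.98, 1.74 and 1.04. Of the pluripotent cell markers, 8 rose and 2 fell, with Klf2, Esrrb and Lin28a at 0.49, 0.45 and -0.75. The 8 that rose include Oct4 and Sox2, which the retroviruses carried. Of all tested genes, 26.5% were called higher and 24% lower, beside which these marker counts stand. The 9 markers of the 2-cell stage summed to 113 to 129 CPM in the knockout lines and 0.615 to 1.25 CPM in the wild-type lines. All of those 9, Tmem92, Usp17lc and Zscan4c among them, passed the count filter through the knockout lines, so the filter fixed the direction of their calls. The part of these cells in the values of Dnmt3b, Tet2, Tet3, Uhrf2 and Tdg was not tested.

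Over the 6 libraries, 3 genes followed Dnmt3b most closely among 10314 genes with a mean of at least 5 CPM, by the root mean square distance of centred log2 CPM values. These were Frem2, a basement membrane gene, at a distance of 0.068, Naprt, an enzyme gene of NAD synthesis, at 0.074, and Peg3, a paternally expressed imprinted gene, at 0.080. Peg3 was at 162 ± 5.59 CPM in the knockout lines and 486 ± 45.7 CPM in the wild-type lines (SD, n = 3 each). With 6 libraries in 2 groups, the measure mostly reads the size of the difference between the genotypes.

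**Figure D5:**
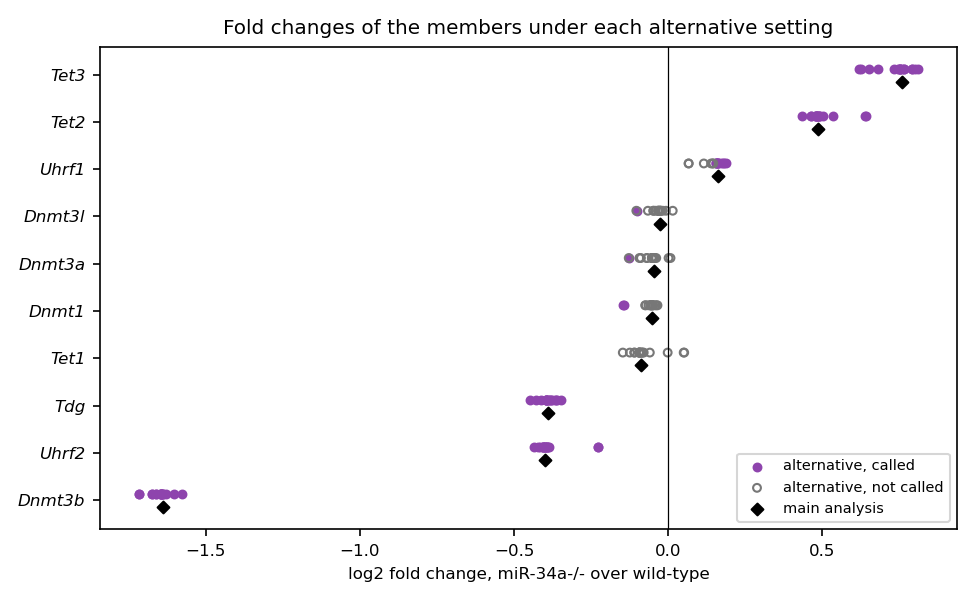
Log2 fold change of each gene in the main analysis (diamonds) and under each of 17 alternative settings (circles, filled where called at an adjusted p under 0.05). Dnmt3b stays between -1.72 and -1.58, Uhrf1 is not called in 6 of the 17, and Dnmt1, Dnmt3a and Dnmt3l are called in 2, 1 and 1 of them.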

How the data were processed

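Poly(A) RNA-seq libraries of 3 knockout and 3 wild-type iPSC lines were grouped by the labels' titles. The authors deposited raw counts per gene and repeat family, whole numbers with no normalization. The tools listed in the submitters' processing notes are featureCounts 1.4.5 and TopHat2 2.0.11, with mm10 as the build. The sources used here do not give the counting options, the strand setting or the handling of reads with several places. The 6 columns of a repeat run carry names found in no label and were used in no step. Repeat families, 5.40% to 6.16% of counts, stayed out of library sizes.

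Names and coordinates came from GENCODE M21 (GRCm38, the mm10 build), which matched 40254 of 41388 gene rows and all 159 listed genes. Counts were filtered with filterByExpr, scaled with TMM and tested with edgeR 4.0.16 in R 4.3.3 (glmQLFit with robust = TRUE, glmQLFTest, no covariate). SE is the log2 fold change over the square root of F. The steps were tested on simulated counts. Pairs of libraries differed beyond sampling noise (chi-square per degree of freedom 2.25 or more, from genes reaching 20 counts in the pair). In the shallowest library, 3 counts are 0.375 CPM. With independent lines, p-values weigh the difference between the groups against the spread between 3 lines each. The fit draws each gene's spread towards a trend over all genes. The difference weighed includes that in sex chromosomes, and the number of embryos behind the lines is not given.

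The members and lists were chosen with earlier results of these data known. Named genes are the 10 members, Mir34a, 5 sex-linked genes, the 3 with the smallest p in each other list and the 3 nearest to Dnmt3b. A gene that this rule would name is not reported here. The lists were methyl-CpG readers, partners and regulators, demethylation and repair, methyl donor cycle, germline, replication, pluripotent, primed epiblast, primitive endoderm, fibroblast and 2-cell stage genes. Copies of members were named after their counts were seen. Alternatives used DESeq2 1.42.0, limma 3.58.1 (voom) and the settings given in the closing section.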

Additional observations from a re-analysis of the deposited data

How the results depend on the processing

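Results were recomputed with DESeq2 size factors, library totals, autosomal genes only, offsets for library GC trends, DESeq2, limma voom, no count filter, 1 CPM in 3 libraries, the replicate number as a block, both block and GC offsets, robust = FALSE, and each library left out. Dnmt3b, Uhrf2, Tet2, Tet3 and Tdg kept their direction and call in all 17 alternatives. Uhrf1 lost its call with GC offsets (0.066), with no count filter (0.14, adjusted p = 0.051) and with block and GC offsets (0.066), and ranged from 0.12 to 0.19 with a library left out. Dnmt1 was called lower with GC offsets (-0.15) and with block and GC offsets (-0.14), and Tet1 turned to 0.050 and 0.052 in these fits. Leaving out a library gave -0.094 to 0.0072 for Dnmt3a and -0.066 to 0.014 for Dnmt3l, neither called. The cause was not tested.

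Deviations from the group means correlated at 0.23, 0.0049 and 0.23 between knockout and wild-type lines of replicates 1 to 3. Between lines of unlike replicate number they correlated at -0.26 to 0.13. Whether lines of the same number were paired is not settled by these values or given by the labels. With the replicate block, 3 of the 10 genes rose and 3 fell, and Dnmt3b was at -1.64. With replicate block and GC offsets, 6 fell and 2 rose, Dnmt3a (-0.13) and Dnmt3l (-0.10) being called lower. Among the genes named from the other lists, 638 of the values kept direction and call and 1 lost its call, Mcm4 with GC offsets (-0.12). Genes called higher numbered 3096 to 4146 and lower 2844 to 3948. Of the 10 genes, Tet3 had the lowest count in any library (127).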
